A study of Mus musculus with 6 samples.

Results

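The genes described here are the corticosteroid receptors of the mouse and a set of genes that glucocorticoids are known to induce, measured in astrocyte RNA from APP/PS1 mice given AVE0991 or saline. The 10 members were chosen by name, with the read counts and expression values of these same 6 libraries already known, and they are 10 of the 36210 gene rows of the expression table. They are the receptor genes Nr3c1 and Nr3c2, the hormone-activating enzyme gene Hsd11b1, and the induced genes Tsc22d3, Fkbp5, Plin4, Sgk1, Zbtb16, Pdk4 and Ddit4. Because measured values entered that choice, the difference of each member between the groups is given as a description. Where the fit over all genes places a member past its threshold, that is counted beside the share of all genes past it and is no test of the member. All 10 passed the filter on low counts that left 20363 genes.

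All libraries came from brains of 8-month-old APP/PS1 mice, a transgenic model that carries mutant human amyloid precursor protein and presenilin 1 and forms amyloid plaques. The 3 vehicle libraries came from mice injected intraperitoneally with sterile saline, and the 3 AVE0991 libraries from mice injected with AVE0991 at 10 mg/kg, in both cases daily for 30 days. AVE0991 is a nonpeptide analogue of angiotensin-(1-7). The labels name no wild-type group, do not say which APP/PS1 line was used or how the astrocytes were isolated, and do not state whether the libraries of a group are separate animals. The p-values therefore reflect the variation among 6 libraries, which may be technical.

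Corticosterone, the main glucocorticoid of the mouse, acts through a pair of nuclear receptors that rest in a chaperone complex until hormone binds. The mineralocorticoid receptor, encoded by Nr3c2, binds corticosterone with the higher affinity, and the glucocorticoid receptor, encoded by Nr3c1, is occupied as hormone rises with stress and with the time of day. Bound receptor enters the nucleus and induces target genes, some of which, such as Fkbp5, act back on the receptor. In the brain, astrocytes carry the glucocorticoid receptor and answer hormone with a broad set of such targets.

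The libraries held 44583274 to 50066615 estimated counts over gene rows. The 7 astrocyte markers summed to 5418 to 6807 CPM (counts scaled to the library size) in vehicle and 6120 to 7446 CPM in AVE0991, but markers of other cells were present beside them. The 7 neuron markers summed to 2861 to 3858 CPM over all libraries, and the 5 oligodendrocyte markers to 3264 to 11000 CPM. No marker of the 11 cell type lists was at 0 in every library. The summed levels of the groups overlapped for 10 of the 11 lists, the exception being oligodendrocyte precursor markers (114.8 to 118.4 CPM in vehicle, 102.8 to 113.3 CPM in AVE0991). The 4 cerebellar granule cell markers summed to 41.4 to 67.3 CPM in vehicle and 49.1 CPM in AVE0991 library 1, but to 883.0 and 888.0 CPM in AVE0991 libraries 2 and 3, which therefore stand apart. In such bulk RNA, fewer cells of a type and less RNA per cell cannot be told apart.

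Among the receptors, Nr3c1 stood lower in every AVE0991 library than in any vehicle library. Its level was 125.0, 129.8 and 128.5 CPM in the vehicle libraries and 74.7, 74.9 and 89.0 CPM in the AVE0991 libraries. The vehicle libraries lay close together, and AVE0991 library 3 was the highest of the lower group. The means were 127.8 ± 2.47 CPM and 79.5 ± 8.17 CPM (SD, n = 3 each), a log2 fold change of -0.68 with a standard error of 0.10, or 1.61-fold lower. The values rest on 3442 to 6635 counts per library. Per length, in the authors' FPKM, Nr3c1 stood at 23.3 ± 0.336 in vehicle and 13.04 ± 0.955 in AVE0991 (SD, n = 3 each), again without overlap.

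In the edgeR fit over all genes, 1 member, Nr3c1, lay past the threshold of an adjusted p under 0.05 on the lower side and 0 did so on the higher side. Of all genes tested, 0.83% were called lower (169 genes) and 0.0344% higher (7 genes). Since the choice of members used this contrast, nothing is read from the members' count. With a correction of each library for transcript GC content, the difference of Nr3c1, whose longest transcript has 42.2% GC, was -0.38 (SE 0.10) and the call was lost. When any single library other than AVE0991 library 1 was left out the call was lost as well, with differences of -0.77 to -0.64 over all 6 omissions. With both AVE0991 libraries that are high in cerebellar markers left out, the difference was -0.77.

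Nr3c2 did not follow Nr3c1. It stood at 88.2, 62.7 and 47.7 CPM in vehicle and at 55.6, 59.2 and 69.1 CPM in AVE0991. Every AVE0991 value lay inside the range of the vehicle libraries, which differed among themselves more than the groups did. The log2 fold change was -0.11 with a standard error of 0.22, and it changed sign to 0.17 without vehicle library 1. In FPKM, a scale on which genes can be compared, Nr3c2 stood at 16.3 ± 5.04 in vehicle and 14.0 ± 1.32 in AVE0991 (SD, n = 3 each).

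The balance of the receptors was read from FPKM within each library. The ratio of Nr3c2 to Nr3c1 was 0.939, 0.664 and 0.492 in vehicle and 1.02, 1.1 and 1.1 in AVE0991. The vehicle libraries all had less mineralocorticoid than glucocorticoid receptor RNA per length, and the AVE0991 libraries all had slightly more. Vehicle library 1, at 0.939, was nearer to parity than AVE0991 libraries 2 and 3. The group means were 0.699 ± 0.225 and 1.07 ± 0.0449 (SD, n = 3 each), and the groups did not overlap. Nr3c1 alone was also without overlap, as were 16.3% of all genes tested on the lower side. No GC correction was applied to these FPKM. With that correction in edgeR the log2 fold change of Nr3c1 went from -0.68 to -0.38, while that of Nr3c2 stayed at -0.11.

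**Figure D1:**
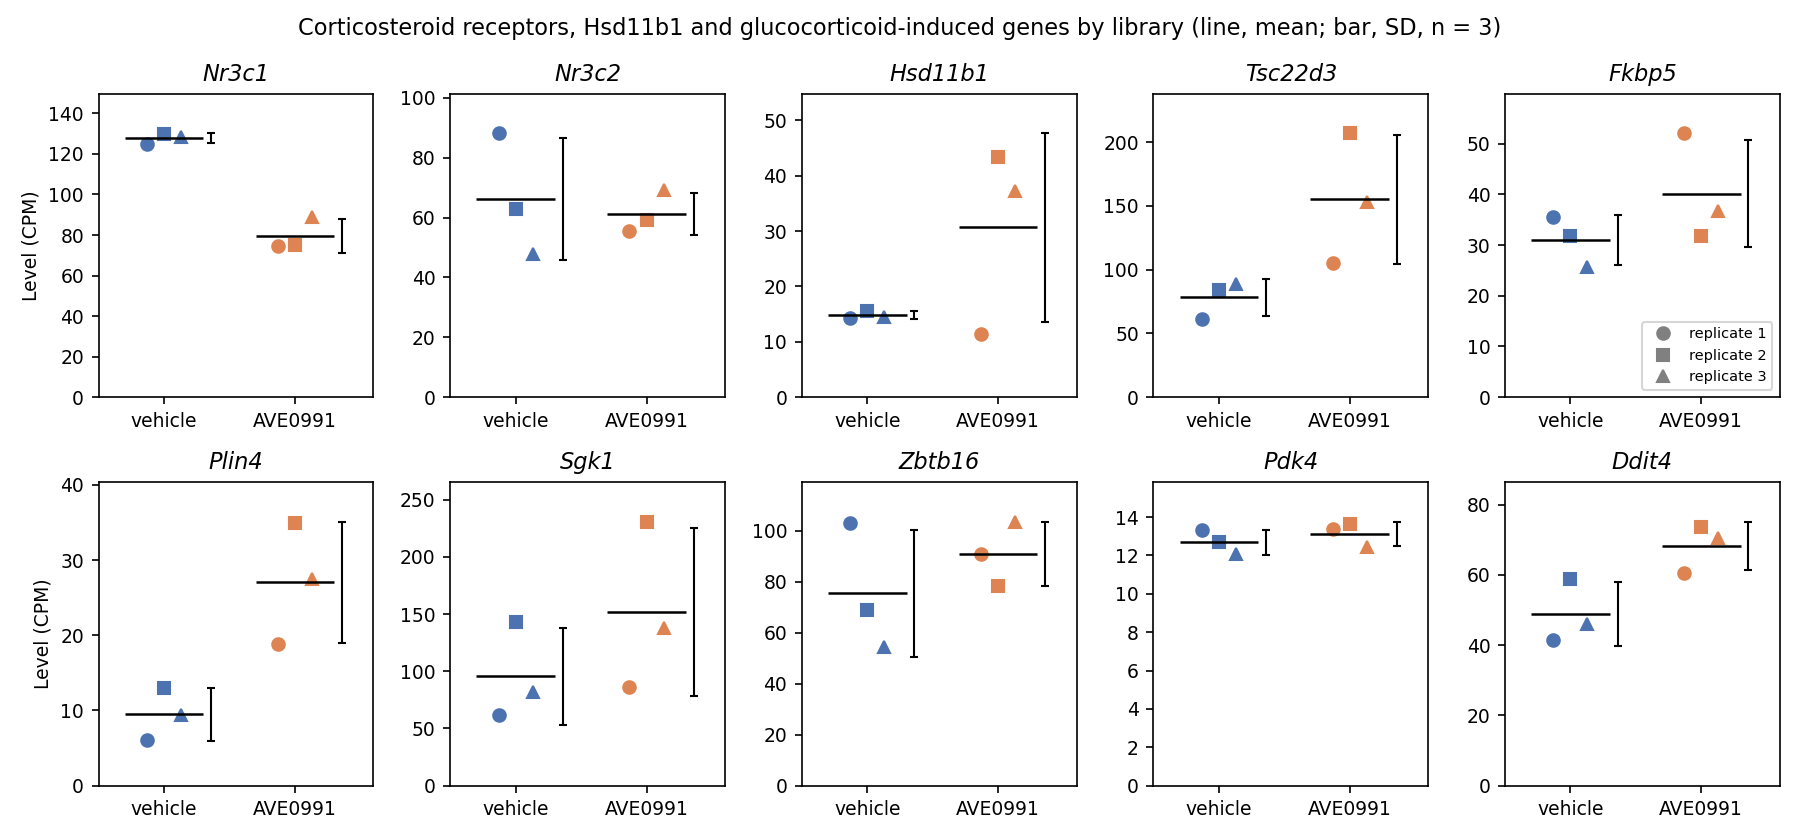
Level of each of the 10 genes in CPM (vertical axes) in the 3 vehicle and 3 AVE0991 libraries, with points for libraries and the mean ± SD of each group. Nr3c1 is lower in every AVE0991 library (74.7 to 89.0 CPM) than in any vehicle library (125.0 to 129.8 CPM), while Plin4, Tsc22d3 and Ddit4 are higher in every AVE0991 library.

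Hsd11b1 encodes the enzyme that turns inert 11-dehydrocorticosterone back into corticosterone inside cells. It stood at 14.4, 15.6 and 14.5 CPM in vehicle and at 11.4, 43.5 and 37.2 CPM in AVE0991. Libraries 2 and 3 of AVE0991 were high and library 1 was below all vehicle libraries, so the groups overlapped. The log2 fold change was 1.05 with a standard error of 0.45, was 1.45 without AVE0991 library 1, and was -0.38 without libraries 2 and 3.

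The high libraries are those that are high in cerebellar granule cell markers, and the part of that mixture in the result was not tested. H6pd, which supplies the cofactor NADPH to this enzyme in the endoplasmic reticulum, had the same pattern. It stood at 19.99, 21.8 and 22.2 CPM in vehicle and at 19.0, 53.2 and 60.2 CPM in AVE0991. The difference of H6pd was 1.05 (SE 0.39) on the log2 scale, with an adjusted p of 0.179 by edgeR's quasi-likelihood test.

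Among the induced genes Plin4, which encodes a protein coat of lipid droplets, had the largest difference of the 7. Its level was 6.02, 13.1 and 9.34 CPM in vehicle and 18.8, 34.9 and 27.5 CPM in AVE0991. All AVE0991 libraries lay above all vehicle libraries, and library 2 was the highest of each group. The means were 9.47 ± 3.52 and 27.1 ± 8.05 CPM (SD, n = 3 each), a log2 fold change of 1.51 with a standard error of 0.33, or 2.86-fold. In FPKM the gene was the lowest of the members in vehicle, at 1.64 ± 0.585, and stood at 4.35 ± 1.28 in AVE0991 (SD, n = 3 each).

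Tsc22d3 encodes GILZ, a leucine zipper protein that mediates anti-inflammatory actions of glucocorticoids. It stood at 61.6, 84.0 and 88.8 CPM in vehicle and at 105.5, 207.0 and 152.9 CPM in AVE0991. The groups did not overlap, and the AVE0991 libraries differed from each other by more than the vehicle libraries did. The log2 fold change was 0.99 with a standard error of 0.26, and 0.97 after the GC correction. With AVE0991 libraries 2 and 3 left out it was 0.44, and that of Plin4 was 1.00.

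Sgk1 encodes a kinase that regulates ion channels and transporters and is a target of both receptors. It stood at 61.9, 142.9 and 82.1 CPM in vehicle and at 86.1, 230.9 and 137.7 CPM in AVE0991. Library 2 was the highest of each group, and the groups overlapped. The log2 fold change was 0.66 with a standard error of 0.43, and it moved to 0.23 without AVE0991 library 2 and to 1.08 without vehicle library 2.

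Ddit4 encodes REDD1, an inhibitor of the growth kinase complex mTORC1. It stood at 41.5, 58.9 and 46.0 CPM in vehicle and at 60.6, 73.7 and 70.6 CPM in AVE0991. The groups were apart by a small margin in CPM and overlapped in FPKM, where vehicle library 2 stood at 37.7 and AVE0991 library 1 at 37.2. The log2 fold change was 0.48 with a standard error of 0.15, and 0.27 after the GC correction.

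Fkbp5 encodes a co-chaperone that lowers hormone binding by the receptor and is among the most used readouts of receptor activity. It stood at 35.6, 31.8 and 25.7 CPM in vehicle and at 52.1, 31.7 and 36.7 CPM in AVE0991. The groups overlapped, and AVE0991 library 1, the lowest of its group for Plin4, Tsc22d3, Sgk1 and Ddit4, was the highest for Fkbp5. The log2 fold change was 0.37 with a standard error of 0.21, and 0.14 without AVE0991 library 1.

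Zbtb16 encodes the transcriptional repressor PLZF. It stood at 103.0, 68.9 and 54.3 CPM in vehicle and at 90.8, 78.3 and 103.5 CPM in AVE0991, with overlap and a log2 fold change of 0.27 (SE 0.24). That of Zbtb16 was 0.08 without vehicle library 3, 0.58 without vehicle library 1 and 0.10 after the GC correction. Pdk4 encodes a kinase that shuts pyruvate dehydrogenase and so spares glucose. It stood at 13.3, 12.7 and 12.1 CPM in vehicle and at 13.4, 13.6 and 12.4 CPM in AVE0991. Pdk4 had a log2 fold change of 0.05 (SE 0.10), which was the smallest of the members, and all 6 libraries lay within a narrow band.

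**Figure D2:**
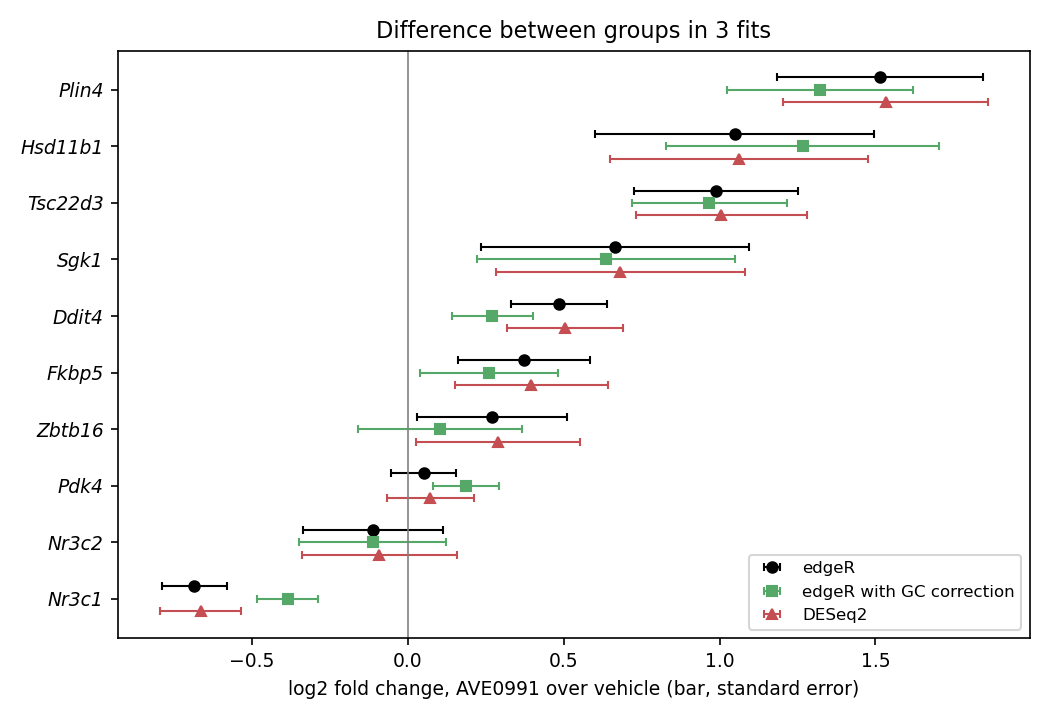
log2 fold change of AVE0991 over vehicle (horizontal axis) for each of the 10 genes from edgeR, from edgeR with GC correction and from DESeq2, with bars of 1 standard error. The 7 induced genes lie above 0 in edgeR, from 0.05 for Pdk4 to 1.51 for Plin4, and Nr3c1 moves from -0.68 to -0.38 with the GC correction.

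Over the members, 8 of 10 differences were above 0, with a median of 0.43, and all 7 induced genes were above 0, with a median of 0.48. Over all 20363 genes tested 49.3% were above 0 and the median was -0.01. After the GC correction the medians were 0.27 for the 10 members, 0.27 for the 7 induced genes and -0.02 for all genes. In CPM 3 members were higher without overlap between the groups (Plin4, Tsc22d3 and Ddit4) and 1 was lower (Nr3c1), beside 14.3% and 16.3% of all genes tested. In DESeq2's fit 2 members were past the threshold on the higher side (Plin4 and Tsc22d3) and 1 on the lower (Nr3c1), beside 4.58% of genes higher (885 of 19309) and 6.29% lower (1215). These counts too come from the contrast with which the members were chosen, and nothing is read from them.

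The order of the libraries was shared by several of the induced genes. Within AVE0991, Plin4, Tsc22d3, Sgk1, Ddit4 and Hsd11b1 were all highest in library 2 and lowest in library 1. Within vehicle, Plin4, Sgk1, Ddit4 and Hsd11b1 were likewise highest in library 2 and lowest in library 1. Fkbp5, Zbtb16 and Pdk4 were instead highest in vehicle library 1 and lowest in vehicle library 3. The order of libraries of the same treatment thus differed among the induced genes.

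**Figure D3:**
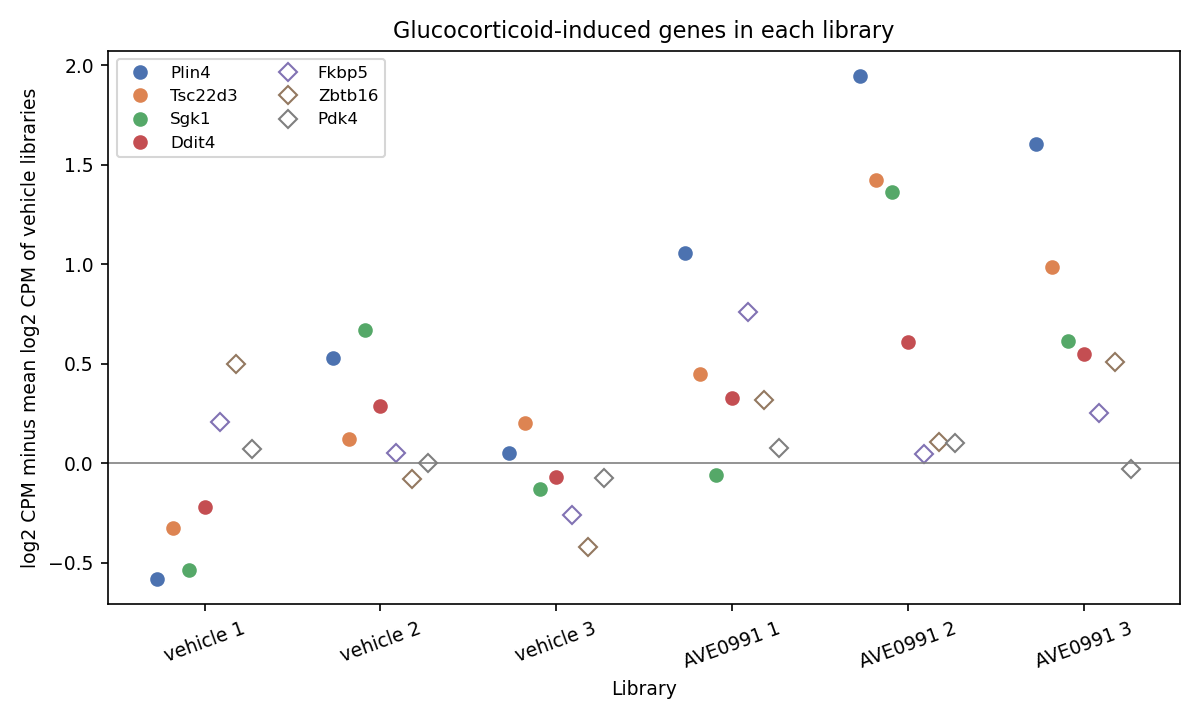
log2 CPM of the 7 induced genes minus their mean log2 CPM in vehicle (vertical axis) in each of the 6 libraries (horizontal axis), 1 point per gene. Plin4, Tsc22d3, Sgk1 and Ddit4 (filled circles) are highest in AVE0991 library 2, whereas Fkbp5 (open diamond) is highest in AVE0991 library 1.

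Markers of other cells varied over the same libraries. The 5 endothelial markers summed to 53.3, 116.3 and 57.1 CPM in vehicle and to 32.8, 107.7 and 54.5 CPM in AVE0991, with library 2 highest and library 1 lowest in each group, the order of Sgk1 and Plin4. The 5 oligodendrocyte markers summed to 3264, 7049 and 7206 CPM in vehicle and to 4946, 11000 and 5292 CPM in AVE0991. The 4 choroid plexus markers summed to 123.2, 1352 and 744.6 CPM in vehicle and to 353.6, 527.8 and 363.3 CPM in AVE0991, in that same order. Library 2 was the highest of each group also for the mural markers (78.4 and 67.0 CPM) and the blood markers (252.5 and 67.9 CPM). Their part in the levels of the induced genes was not tested. The sums of the groups overlapped for each of these 5 lists.

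**Figure D4:**
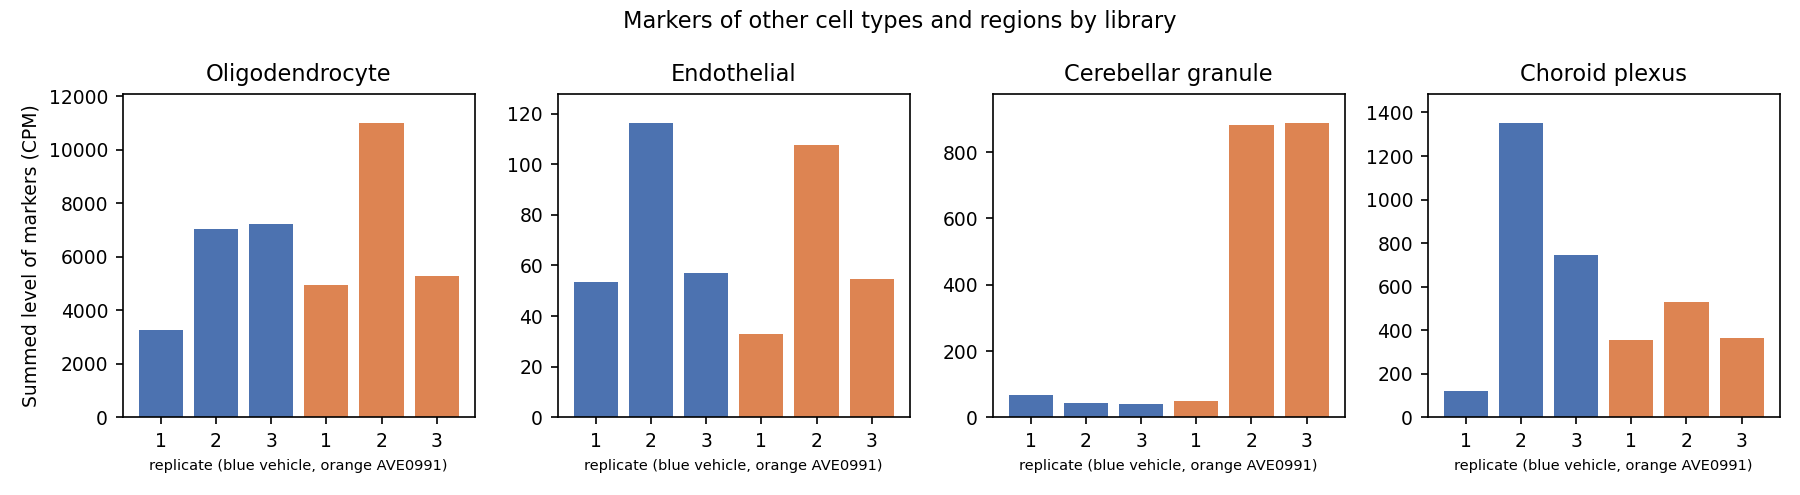
Summed CPM of the oligodendrocyte, endothelial, cerebellar granule cell and choroid plexus marker lists (vertical axes) in each of the 6 libraries. Cerebellar granule cell markers reach 883.0 and 888.0 CPM in AVE0991 libraries 2 and 3 and at most 67.3 CPM elsewhere, and endothelial and choroid plexus markers are highest in library 2 of each group.

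Per length, the vehicle libraries ordered the members from Tsc22d3 (42.9 ± 8.56 FPKM) and Sgk1 (40.1 ± 19.0) through Ddit4 (30.8 ± 6.21) to Nr3c1 (23.3 ± 0.336). Nr3c2 (16.3 ± 5.04 FPKM), Zbtb16 (12.6 ± 4.16), Hsd11b1 (11.8 ± 0.736) and Fkbp5 (8.32 ± 1.29) followed, with Pdk4 (3.83 ± 0.172) and Plin4 lowest (SD, n = 3 for each). The ranges of mean ± SD overlapped among the first 3, and among Nr3c2, Zbtb16 and Hsd11b1. Within each vehicle library, however, Tsc22d3 stood above Ddit4, and Nr3c2 above Zbtb16 and Hsd11b1. The other pairs in these 2 sets changed order between libraries. The range of Sgk1 also reached those of Nr3c1 and Nr3c2, and that of Fkbp5 reached that of Zbtb16. In AVE0991, Tsc22d3 (78.4 ± 24.3 FPKM) and Sgk1 (59.8 ± 28.2) again led by mean. Ddit4 (40.6 ± 3.14) lay within the range of Sgk1 and above Sgk1 in AVE0991 library 1. The ranges of Nr3c1 (13.04 ± 0.955), Nr3c2 (14.0 ± 1.32) and Zbtb16 (14.0 ± 1.86) overlapped (SD, n = 3 for each). Those of Hsd11b1 (22.8 ± 12.4) and Fkbp5 (10.2 ± 2.99) overlapped them too. Nr3c2 stood above Nr3c1 within each AVE0991 library.

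The receptors bind an inverted repeat of the hexamer AGAACA around a spacer of 3 bases, written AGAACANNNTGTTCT. Promoter windows of 300 bases, from 250 before to 50 after an annotated start, were taken from RefSeq on GRCm38.p6. They matched by symbol for 8 of the 10 genes, all but Nr3c1 and Zbtb16. The 8 genes had 15 promoters, because Sgk1 and Tsc22d3 each have several annotated starts. The hexamer, on either strand, was present in 4 of the 15, all of Sgk1 or Tsc22d3, and so in 2 of the 8 genes. It was present in 19.0% of all 32851 promoters of the table. The whole repeat, with its 12 fixed positions matched, was present in 1 of the 15, a promoter of Sgk1, and in 3 of all 32851 promoters (0.00913%). The Sgk1 window, chr10:21993640-21993939 on the plus strand, is shown because it holds that repeat, and the Tsc22d3 window, chrX:140600473-140600772 on the minus strand, because it holds the hexamer alone. Capitals mark the hexamer on either strand.
Sgk1: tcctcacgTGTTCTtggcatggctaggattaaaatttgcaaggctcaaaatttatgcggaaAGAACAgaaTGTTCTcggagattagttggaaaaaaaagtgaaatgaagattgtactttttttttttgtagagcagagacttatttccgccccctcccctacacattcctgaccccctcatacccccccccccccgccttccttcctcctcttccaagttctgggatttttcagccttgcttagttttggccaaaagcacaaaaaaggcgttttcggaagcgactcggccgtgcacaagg
Tsc22d3: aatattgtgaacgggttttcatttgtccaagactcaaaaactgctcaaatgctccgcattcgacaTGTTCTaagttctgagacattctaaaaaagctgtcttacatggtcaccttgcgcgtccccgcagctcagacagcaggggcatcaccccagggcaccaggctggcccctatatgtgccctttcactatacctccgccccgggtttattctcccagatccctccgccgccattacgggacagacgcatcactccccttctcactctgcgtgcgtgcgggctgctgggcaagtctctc
The repeat in Sgk1, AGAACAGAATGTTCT, spans positions 21993701 to 21993715 of chromosome 10 and begins 189 bases before that start. A match is a description of these letters and says nothing of binding in these cells, and the libraries do not tell which start of Sgk1 was used.

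The other glucocorticoid-induced genes gave a wider view of the same class. Of 28 listed genes, all tested, 1 was called higher and 0 lower by edgeR, 26 had a difference above 0, and the median was 0.43. Over all genes tested 0.0344% were called higher, 49.3% were above 0 and the median was -0.01. DESeq2 called 6 of the 28 higher and 0 lower, beside 4.58% and 6.29% of all genes. The list was written with earlier results of these libraries known, so its direction is not independent evidence. In 14 of the 28 the AVE0991 libraries all lay above the vehicle libraries, and 0 lay below without overlap, beside 14.3% and 16.3% of all genes tested. With AVE0991 libraries 2 and 3 left out, the median was 0.25.

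Hif3a, a hypoxia-inducible factor subunit gene, was the gene called. It stood at 4.28, 4.50 and 3.90 CPM in vehicle and at 15.7, 18.6 and 16.3 CPM in AVE0991. The groups were far apart and each was tight, with a log2 fold change of 1.99 (SE 0.13) and an adjusted p of 0.0141 by edgeR's quasi-likelihood test. Hif3a was 1.87 after the GC correction, with an adjusted p of 0.0323 by the same edgeR test. Leaving out single libraries gave 1.92 to 2.05, and the call held only without AVE0991 library 1, the adjusted p of the other 5 omissions being 0.0921 or more by edgeR. It was also lost without AVE0991 libraries 2 and 3 together.

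The next genes of the list by p were Cdkn1a, Mt2 and Mt1, which edgeR did not call and DESeq2 called higher. Cdkn1a, the gene of the cell cycle inhibitor p21, stood at 9.81, 10.96 and 10.7 CPM in vehicle and at 15.1, 24.6 and 20.9 CPM in AVE0991. Mt2, a metallothionein gene, stood at 31.6, 31.5 and 26.3 CPM in vehicle and at 44.0, 63.2 and 78.7 CPM in AVE0991. Mt1, another metallothionein gene, stood at 105.5, 108.6 and 96.5 CPM in vehicle and at 136.6, 188.8 and 202.3 CPM in AVE0991. In all 3 genes the groups did not overlap. Their log2 fold changes were 0.95 (SE 0.18), 1.06 (SE 0.21) and 0.76 (SE 0.16), with adjusted p of 0.0673, 0.0739 and 0.0780 by edgeR's quasi-likelihood test.

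**Figure D5:**
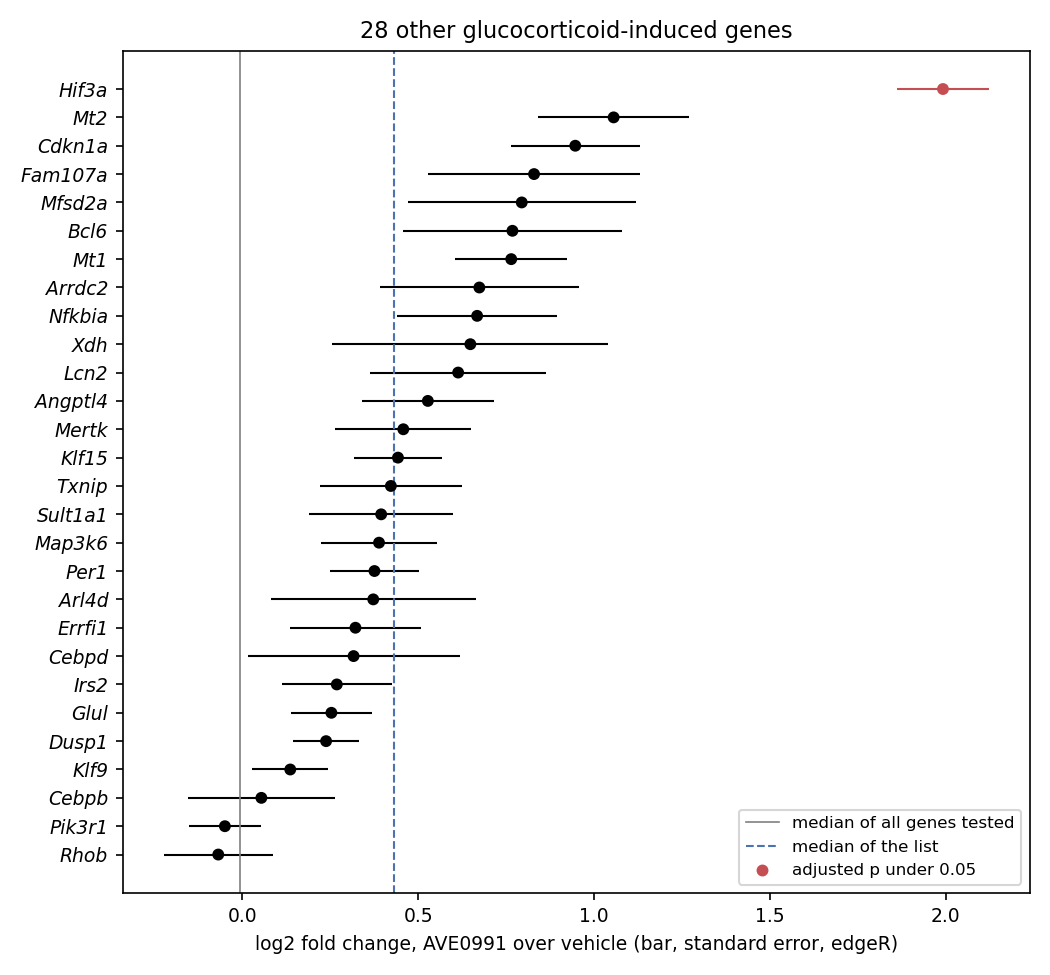
log2 fold change of AVE0991 over vehicle from edgeR (horizontal axis) for the 28 other glucocorticoid-induced genes, with bars of 1 standard error. Of the 28 genes, 26 lie above 0, and Hif3a, at 1.99, is the gene called.

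Genes of the proteins that hold the receptor ready for hormone or carry its signal to transcription were also listed. Of 18 chaperone and coregulator genes tested edgeR called 0 in either direction, beside 0.0344% higher and 0.83% lower of all genes. Their median was 0.04. An unadjusted edgeR p under 0.05 was found for 4 of the 18, beside 4796 of all 20363 genes tested. DESeq2 called 2 of the 18 lower, Hsp90aa1 and Ptges3, beside 6.29% of all genes. Hsp90aa1, the gene of an inducible form of the chaperone HSP90, stood at 402.4, 383.8 and 418.3 CPM in vehicle and at 263.8, 327.5 and 254.1 CPM in AVE0991. Its log2 fold change was -0.51 (SE 0.13), with an adjusted p of 0.104 by edgeR. That of Ptges3, which encodes the co-chaperone p23, was -0.40 (SE 0.09), with an adjusted p of 0.0923 by edgeR. The difference of Ppid, the gene of cyclophilin 40, was -0.32 (SE 0.11) and 0.03 after the GC correction, with an adjusted p of 0.153 by edgeR before it. With the same correction Hsp90aa1 stood at -0.31 and Ptges3 at -0.17.

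Of the 11 genes of hormone metabolism and transport 9 were tested. EdgeR called 0 of them in either direction, beside 0.0344% higher and 0.83% lower of all genes. An unadjusted edgeR p under 0.05 was found for 3 of the 9, beside 4796 of all 20363 genes tested. DESeq2 called 1 of the 9 higher, H6pd, beside 4.58% of all genes. The median of the 9 was -0.03. Hsd11b2, whose enzyme inactivates corticosterone and thereby shields the mineralocorticoid receptor, is named after its values were seen: vehicle libraries averaged 0.0287 ± 0.0339 CPM and AVE0991 libraries 0.0584 ± 0.0346 CPM (SD, n = 3 each), too low to be tested. Akr1c14, a hydroxysteroid dehydrogenase gene, was also low, at 0.551, 0.548 and 0.359 CPM in vehicle and 0.0997, 0.174 and 0.227 CPM in AVE0991, without overlap. Its log2 fold change was -1.54 (SE 0.42), and -0.98 after the GC correction, with an adjusted p of 0.115 by edgeR before it. Abcc1, an efflux transporter gene, had a difference of 0.39 (SE 0.15), with an adjusted p of 0.187 by edgeR. Of the 9 genes of the stress axis 7 were tested. EdgeR called 0 of these, beside 0.0344% higher and 0.83% lower of all genes. An unadjusted edgeR p under 0.05 was found for 2 of the 7, beside the same 4796 of 20363. DESeq2 called 1 of the 7 higher, Crhr1, and 1 lower, Pomc, beside 4.58% and 6.29% of all genes. It gave no adjusted p for Avp. The median of the 7, -0.15, moved with single libraries. It was -0.64 without AVE0991 library 1, 0.31 without AVE0991 library 3 and 0.07 without vehicle library 2. Crhr1, a receptor of corticotropin-releasing hormone, stood at 17.2, 13.9 and 13.9 CPM in vehicle and at 15.8, 55.1 and 58.0 CPM in AVE0991. Like Hsd11b1 and H6pd, it was high in the libraries with cerebellar granule cell markers, whose part was not tested. Pomc, the precursor gene of ACTH, stood at 3.75, 14.99 and 4.22 CPM in vehicle and at 2.07, 3.05 and 1.75 CPM in AVE0991. The groups did not overlap, but vehicle library 2 was well above all others. The log2 fold changes were 1.52 (SE 0.46) for Crhr1 and -1.74 (SE 0.58) for Pomc, with adjusted p of 0.131 and 0.151 by edgeR. Crhbp, the gene of a protein that binds corticotropin-releasing hormone, had a difference of -0.38 (SE 0.30), with an adjusted p of 0.472 by edgeR.

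Among receptors of other steroid hormones, Pgr and Esr2 are described, and edgeR called neither. Pgr, the progesterone receptor gene, stood at 43.5, 39.1 and 42.3 CPM in vehicle and at 29.5, 23.4 and 23.1 CPM in AVE0991. Every AVE0991 library lay below every vehicle library, with the lower values in libraries 2 and 3. Pgr had a log2 fold change of -0.72 (SE 0.12), with an adjusted p of 0.0547 by edgeR's quasi-likelihood test, and DESeq2 called it lower. Esr2, an estrogen receptor gene, had a difference of 0.53 (SE 0.39), with an adjusted p of 0.444 by edgeR.

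The genes whose log2 CPM over the 6 libraries was most like that of Nr3c1, among 9866 genes with a mean of at least 10 CPM, were Zfp62, Marchf7 and Tmx3, with Pearson r of 0.998, 0.997 and 0.997. Zfp62 and Tmx3 stood at log2 fold changes of -1.03 and -0.91. For Fkbp5 they were Tbc1d22a, Mapk3 and Dcaf7, with r of 0.993, 0.990 and 0.989. These r describe 6 libraries that share their group difference and their depth. When deviations from the group means were used instead, 0 of the 3 for Nr3c1 and 1 of the 3 for Fkbp5, Dcaf7, were again among the 3 most alike.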

How the data were processed

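Expression was read from the authors' deposited table, which held estimated counts and FPKM per library. The submitters' processing notes name HISAT and mm9. Not given in the sources used here are the counter, whether it used strand, and the gene annotation. A second deposited table gave the authors' log2 fold changes with p-values and q-values, used here to check signs. 4 deposited columns of group averages were not used.

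Estimated counts were rounded to whole numbers (81.6% were whole as deposited) and fitted in R 4.3.3 with edgeR 4.0.16 (filterByExpr, TMM, robust quasi-likelihood F test, no covariates), with Benjamini-Hochberg adjustment over 20363 genes and a call at an adjusted p under 0.05. CPM uses TMM library sizes. DESeq2 1.42.0, limma 3.58.1 and a correction for transcript GC content (82.7% of genes had a value) were alternatives. Limma-voom was in every case run with sample quality weights. The fit was tested on simulated data with 100 genes changed by a log2 fold change of 1 in size and 100 by 2. It called 41% and 93% of these, with 6 false calls among 140 calls. A gene that was not called may therefore still differ.

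The members and all lists were chosen with earlier results of these data known. All members are named, and in each list every called gene and up to 3 more of smallest p. A listed gene, and the summary of its list, are not reported here. The list of hippocampal markers was added after the data were seen; its sums were 167.8 to 258.8 CPM in vehicle and 154.5 to 280.1 CPM in AVE0991.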

Additional observations from a re-analysis of the deposited data

How the results depend on the processing

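Over all genes, edgeR called 7 higher and 169 lower. The counts were 58 and 379 with no filter, 18 and 328 with genes kept at 1 CPM on average, 1 and 1 with circular RNA rows in the fit, 1 and 0 with the GC correction, 449 and 721 with limma-voom, 885 and 1215 with DESeq2, 0 to 1386 and 0 to 995 when single libraries were left out, and 0 and 0 without AVE0991 libraries 2 and 3, where the lone sample is assumed to vary like the other group. With FPKM, 287 genes were lower at a pseudocount of 0.1 and 310 at 1. With the replicate block, with or without the GC correction, the counts were 0 and 0. The labels do not state that the replicate numbers pair libraries, so the block was used as an alternative. Same-numbered libraries correlated at 0.00295, 0.128 and -0.472 in their deviations. With the block the standard error fell for Sgk1 (0.43 to 0.12), Plin4 (0.33 to 0.12) and Tsc22d3 (0.26 to 0.15). It fell by less for Fkbp5 (0.21 to 0.15), Ddit4 (0.15 to 0.12), Hsd11b1 (0.45 to 0.41) and Zbtb16 (0.24 to 0.23). It rose for Nr3c1 (0.10 to 0.12), Nr3c2 (0.22 to 0.24) and Pdk4 (0.10 to 0.12).

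Of the members, edgeR called 0 higher and 1 lower, beside 7 and 169 of 20363 genes. Higher calls were 2 with limma-voom and quality weights (449 of 20363 genes) and 2 with DESeq2 (885 of 19309). When single libraries were left out they were 0 to 3. The 3 came without AVE0991 library 1, where 1386 of 20918 genes were called higher and 995 lower. Lower calls were 0 to 1 in those omissions and 0 with the replicate block, the GC correction, both, circular RNA rows in the fit, and without AVE0991 libraries 2 and 3. The members' median of 0.43 was 0.26 with the replicate block and GC correction together and 0.18 without AVE0991 libraries 2 and 3. Nr3c1 stayed below 0 in all 19 settings, from -0.84 to -0.38, and Plin4 above 0, from 1.00 to 1.82. Signs reversed for Nr3c2 without vehicle library 1 (0.17, single omissions giving -0.30 to 0.17) and with limma-voom (0.16), for Hsd11b1 (-0.38) and Sgk1 (-0.14) without AVE0991 libraries 2 and 3, and for Pdk4 in FPKM (-0.0331 at 0.1 and -0.0267 at 1). Where no construction of the alternative shows it, the cause was not tested. Promoters with a motif match numbered 4 with the hexamer, 2 with the repeat at up to 2 mismatches and 1 with the exact repeat. The 2 are windows of 1 gene, Sgk1, beside 606 of all 32851 promoters (1.84%). Circular RNA rows carry no host gene, so those of the members were not analysed here. With 3 libraries a group, an exact permutation test could not go below a p of 0.1.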

Other observations

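Clock genes were set beside the receptor genes because corticosterone varies with the time of day. Of 14 clock genes tested, edgeR called 1 higher, Dbp, and 0 lower, beside 0.0344% and 0.83% of all genes. DESeq2 called 3 higher and 1 lower, beside 4.58% and 6.29% of all genes. The median log2 fold change of the 14 was 0.30, and it was 0.16 with the GC correction and 0.15 without AVE0991 libraries 2 and 3. Dbp, a transcription factor gene driven by the clock, stood at 67.6, 68.4 and 72.3 CPM in vehicle and at 114.6, 119.9 and 118.0 CPM in AVE0991. The groups were apart, with a log2 fold change of 0.76 (SE 0.08) and an adjusted p of 0.0374 by edgeR's quasi-likelihood test. Leaving out single libraries gave 0.75 to 0.79 for Dbp, and of these omissions the call held only without AVE0991 library 1. The call was also lost with the GC correction (0.54, adjusted p of 0.188 by edgeR), with circular RNA rows in the fit and without AVE0991 libraries 2 and 3 together. Nr1d1, the gene of the repressor REV-ERBα, had a difference of 0.52 (SE 0.09) and Ciart, a clock repressor gene, of 0.72 (SE 0.13), with adjusted p of 0.0509 and 0.0590 by edgeR. After the GC correction Nr1d1 stood at 0.31 and Ciart at 0.60. Clock itself stood at -0.72 (SE 0.14), with an adjusted p of 0.0706 by edgeR, and at -0.34 after the GC correction. Per1 belongs to this list and to that of the other glucocorticoid-induced genes. The time of day at which tissue was taken is not given in the labels.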
